A study of Mus musculus with 6 samples.

Results

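Mouse osteosarcoma lines that carry floxed p53 and retinoblastoma (Rb) alleles were compared with differentiated cultures of the mouse bone marrow stromal line KUSA4b10. The genes compared are those of the Rb pocket proteins and the E2F transcription factors. The group holds 10 genes of the 19938 measured, chosen by name: the pocket protein genes Rb1, Rbl1 and Rbl2, and E2f1, E2f2, E2f3, E2f4, E2f5, E2f7 and E2f8. All 10 were measured, with no filter on low values. Where a gene had several probe sets, the brightest over the 6 arrays stood for it. Among probe sets with a single gene symbol, Rb1 has 1, and E2f3 alone has more than 1. Other probe sets were not searched for these genes.

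The 3 osteosarcoma lines, OS_493H, OS_494H and OS_716H, were derived from primary tumours of C57Bl6 mice that were Osx-Cre+ with genotypes Rb fl/fl and p53 fl/fl. The tumours arose in the hip, hip and tibia, at ages labelled 188, 190 and 226 without a unit. Cre was driven by Osterix, a gene of the osteoblast lineage, and the cells in which recombination took place were not examined here. The 3 cultures were KUSA4b10, a C57Bl6 bone marrow stromal line with no floxed allele named in its labels, kept for 21 days after confluence in medium with 50 ug/ml ascorbate. Lines and cultures were grown in RPMI. They are called cultures 1 to 3. All 3 are a single line, tagged Ex1, Ex2 and Ex3. The tags may mark separate experiments, but the labels do not explain them, so the p-values may cover only technical spread among the cultures. The labels give no confluence or ascorbate step for the tumour lines. Tumour origin, genotype, growth state and differentiation state therefore cannot be told apart in any difference below.

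Pocket proteins bind E2F factors and hold their target genes down. Cyclin-dependent kinases phosphorylate the pocket proteins late in G1, E2F factors are released, and genes of S phase are transcribed. Rb binds mainly the activating E2F factors, while p107 (Rbl1) and p130 (Rbl2) bind mainly E2F4 and E2F5, and p130 is the main pocket protein of resting cells. In osteoblasts Rb is also known for a role in differentiation, and loss of RB1 is frequent in human osteosarcoma.

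The values are log2 expression, so a difference of 1 is a 2-fold change, and a level is read against the same gene on other arrays, not against another gene. Differences are lines minus cultures. A call means a limma p under 0.05 after Benjamini-Hochberg adjustment across the 19938 genes. The array labelled as the female line OS_716H gave Xist at 5.50, against 12.62 in the female line OS_493H, and the Y-linked gene Uty at 10.06, against 5.11 in OS_493H and 9.90 in the male line OS_494H. Its signal thus went against its labelled sex, and results are also given without it. The cultures gave Xist at 5.57 to 5.79 and Uty at 4.94 to 5.26, so neither gene was high there. Markers of other cell types were checked, and their counts are read beside the 13.2% of all genes called higher and 11.4% called lower. Of 10 measured adipocyte markers 9 were lower in the lines, with a mean log2 level over the list of 10.25 to 10.95 in the cultures and 7.38 to 7.66 in the lines. The 4 with the largest falls were Adipoq (-5.95), Cd36 (-5.23), Retn (-4.76) and Plin1 (-3.25). Of 10 blood cell markers 1, Cd14, was higher (0.53), a call lost without culture 1 (adjusted p = 0.0724), culture 2 (0.0556) or OS_493H (0.0524). Their mean was 6.48 to 6.49 in the cultures and 6.48 to 6.51 in the lines. Of 7 muscle markers 1, Acta1, was higher (0.34), a call lost without culture 1 (0.0558) or culture 3 (0.0677), with means of 7.22 to 7.36 and 7.28 to 7.36. None of 7 endothelial markers was called, with means of 6.37 to 6.41 and 6.42 to 6.79, the widest difference being that of Tek (1.24). Tek was 6.34 to 6.40 in the cultures and 9.05, 6.30 and 7.52 in OS_493H, OS_494H and OS_716H. It was called without OS_494H (adjusted p = 0.0199) and with array weights (0.0408). Of 7 osteoblast markers 3 were lower, Ibsp, Phex (-4.73) and Dmp1 (-4.36). Ibsp was at 13.23 ± 0.40 (SD, n = 3) in the cultures and 7.07 ± 0.99 (SD, n = 3) in the lines. Col1a1 (-0.07) and Col1a2 (-0.03), the type I collagen genes, were not called. Alpl (-1.39, adjusted p = 0.224) and Sp7, the Osterix gene (-1.21, adjusted p = 0.141), were not called either. Alpl was called without OS_716H (0.0183). The part of fat-like cells in the results below was not tested. In bulk RNA, fewer cells of a type and less RNA per cell cannot be told apart.

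Of the 10 genes, 5 rose (Rbl1, E2f1, E2f3, E2f7 and E2f8), 2 fell (Rb1 and Rbl2) and 3 were not called (E2f2, E2f4 and E2f5). Over all genes 13.2% were called higher and 11.4% lower, 24.6% in either direction. The median difference over the 10 was 0.67, against -0.02 over all genes. Lines and cultures did not overlap for 8 of the 10, against 41.5% of all genes: all 3 lines lay above all 3 cultures for the 5 that rose and for E2f5, and below them for Rb1 and Rbl2. Without OS_716H 6 rose and 2 fell. The differences were then -1.18 for Rb1, 1.35 for Rbl1, -0.78 for Rbl2, 1.11 for E2f1, 0.88 for E2f3, 2.17 for E2f7 and 1.96 for E2f8, each called, with E2f5 as the added call. In the same way, without culture 2, the culture with the highest proliferation markers, the counts were 5 and 2. Directions were the same after quantile normalisation and after median centring of each array, for all 10 genes.

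**Figure D1:**
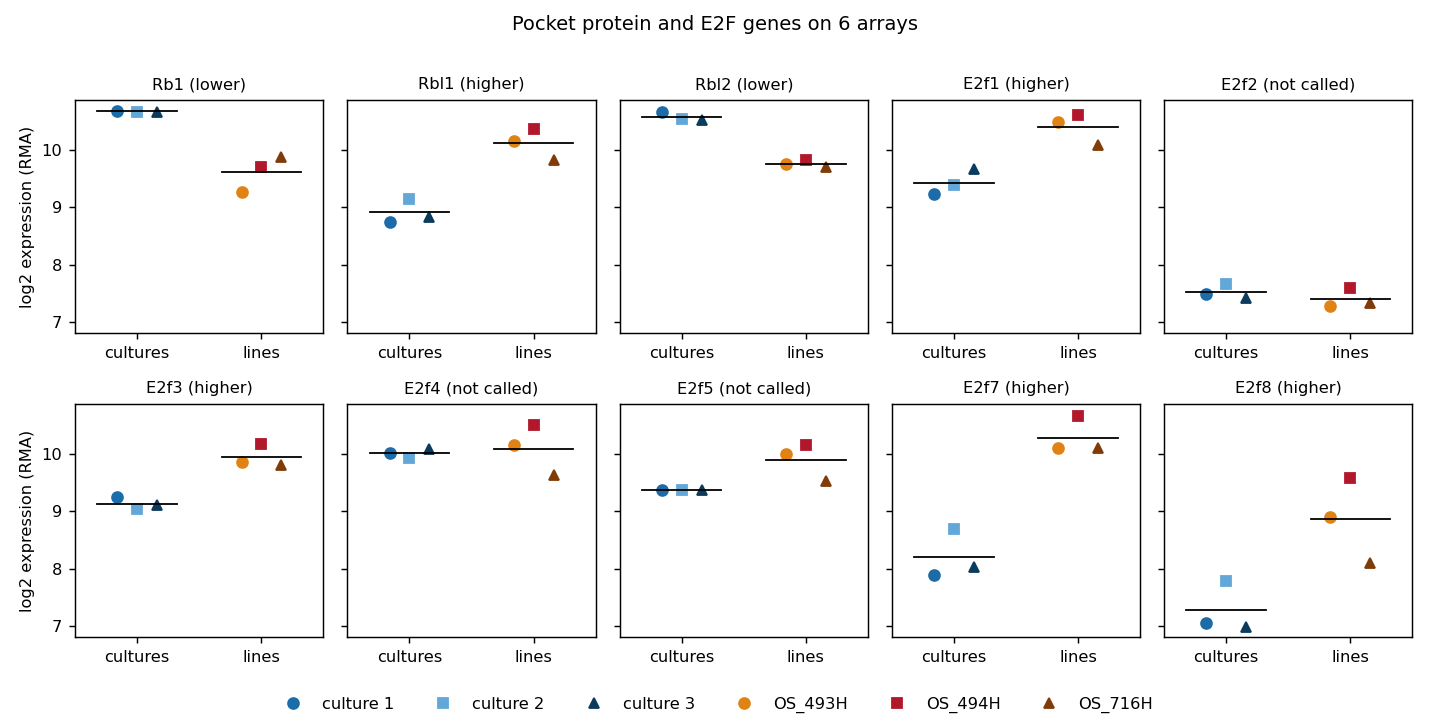
Log2 expression (vertical axis) of the 10 genes on 6 arrays, cultures at the left and lines at the right of each panel, with points for arrays, bars for group means and the limma call in brackets. Levels compare within a panel only: Rb1 and Rbl2 are lower in the lines, E2f7 and E2f8 have the largest rises, and the square of OS_494H is the highest of the lines in 9 of 10 panels.

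Rb1 encodes the retinoblastoma protein and is a gene targeted in the model. Its level was 10.68, 10.66 and 10.66 in cultures 1 to 3 and 9.26, 9.70 and 9.87 in lines OS_493H, OS_494H and OS_716H, the order used for the lines from here on. The cultures were nearly identical, with a range of 0.02, whereas the lines spanned 0.61 and each lay below every culture. The difference was -1.05 ± 0.15 (SE, 95% interval -1.42 to -0.68, limma adjusted p = 0.00427), a 2.08-fold lower level. Adjusted over all 35556 probe sets, p was 0.00627. The probe set averages probes along the transcript, and the labels do not say which exon is floxed, so the level is no measure of recombination.

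The genes around Rb1 on chromosome 14 did not move as a block. The probe set named for Mir687, a microRNA gene that lies within the span of Rb1, was 6.03, 6.01 and 6.002 in the cultures and 4.72, 5.05 and 5.10 in the lines, so that the lines kept the order they had for Rb1. Its difference of -1.06 ± 0.11 (SE, adjusted p = 0.00154) was called in 14 of 14 other settings, and the probe set dropped out of the filter on brightness. As there is no detection call, whether it lay above background is unknown. Its pattern was the closest to that of Rb1 among all genes. The root mean square distance between the 6 centred values of Mir687 and Rb1 was 0.07. Lpar6, a lysophosphatidic acid receptor gene also within the span of Rb1, had a difference of 0.42 ± 0.13 (SE) with an adjusted p of 0.0615 and was not called, although all 3 lines lay above all 3 cultures.

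Outside Rb1 the nearest measured genes went both ways. On the side of the neighbours listed before Rb1, Rcbtb2 rose by 0.61, Cysltr2 differed by -0.39 without a call, Fndc3a fell by 0.91 and Gfra2 rose by 2.72. On the other side Itm2b fell by 0.84 and Med4 differed by 0.28 without a call. The calls of Fndc3a and Itm2b were lost without culture 1 (adjusted p = 0.0661 and 0.0593) and without culture 3 (0.0632 and 0.0535), and that of Gfra2 without culture 1 (0.0521). After Mir687, the genes with a pattern most like Rb1 over the 6 arrays were Malat1, Got1, Macrod1 and Abhd15, at distances of 0.10 to 0.13.

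**Figure D2:**
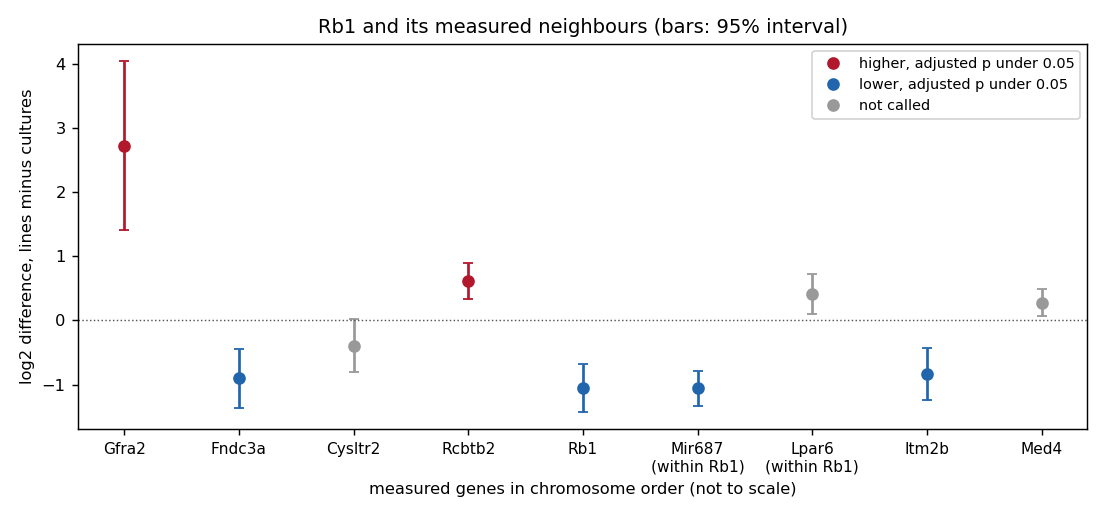
Log2 difference (lines minus cultures, vertical axis) of Rb1 and the 4 nearest measured genes on each side, in chromosome order and not to scale. Points are limma estimates and bars their 95% intervals. Rb1 and Mir687 sit near -1.05, with genes on both sides that are higher, lower or not called.

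The pocket protein genes other than Rb1 moved in opposite directions. Rbl1, which encodes p107 and is itself transcribed from an E2F-regulated promoter in cycling cells, was 8.75, 9.15 and 8.84 in the cultures and 10.16, 10.37 and 9.82 in the lines. All 3 lines lay above all 3 cultures. The difference was 1.21 ± 0.17 (SE, adjusted p = 0.00354), a 2.31-fold higher level. Rbl2, which encodes p130, was 10.66, 10.54 and 10.52 in the cultures and 9.75, 9.83 and 9.70 in the lines, with spreads of 0.08 and 0.07 (SD, n = 3 each). The groups were far apart compared with those spreads. The difference was -0.81 ± 0.08 (SE, adjusted p = 0.00115), a 1.76-fold lower level. It had the smallest range among the lines of all 10 genes, 0.13.

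Whether the change differed between Rbl1 and Rbl2 was tested on the log2 value of Rbl1 minus that of Rbl2 on each array. That value was -1.91, -1.39 and -1.68 in the cultures and 0.41, 0.54 and 0.13 in the lines. It shifted by 2.02 between the groups, with p = 0.1 in an exact permutation test (two-sided). No smaller p is possible with 3 arrays against 3. All 3 lines lay above the cultures for Rbl1 and below them for Rbl2. This p follows from that order alone and adds no support to it. Without each array in turn the shift was 1.89 to 2.16.

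Among the activating E2F genes, E2f1 and E2f3 rose and E2f2 was not called. E2f1, the founding member and an inducer of S phase, was 9.23, 9.39 and 9.67 in the cultures and 10.48, 10.60 and 10.09 in the lines. The groups did not overlap, and the gap between the highest culture and the lowest line was narrower than for Rbl1. The difference was 0.96 ± 0.17 (SE, adjusted p = 0.00824), a 1.94-fold higher level. The genes with the pattern most like E2f1 were Cklf, Uap1, Scoc, Mllt3 and Siva1, at root mean square distances of 0.09 to 0.11 over 6 arrays.

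E2f3, the other main activator, was 9.25, 9.04 and 9.11 in the cultures and 9.86, 10.16 and 9.81 in the lines, a difference of 0.81 ± 0.12 (SE, adjusted p = 0.00395). Its dimmer probe set gave 8.34, 7.99 and 8.39 against 8.71, 9.22 and 8.86. That is a difference of 0.69 ± 0.17 (SE, adjusted p = 0.0312 over all 35556 probe sets), so both probe sets of E2f3 rose. E2f2 was 7.49, 7.67 and 7.42 in the cultures and 7.29, 7.60 and 7.34 in the lines. Its groups overlapped, and the difference of -0.12 had a 95% interval of -0.39 to 0.16 (adjusted p = 0.535). The arrays carry no detection call, so whether E2f2 lay above background is unknown.

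E2F4 and E2F5 are the E2F factors that act as repressors with p130 and p107 in resting cells. E2f4 was 10.01, 9.92 and 10.08 in the cultures, and 10.14, 10.49 and 9.63 in the lines. The lines lay on both sides of the cultures and spanned 0.86, against 0.16 for the cultures. The difference was 0.08 ± 0.21 (SE, 95% interval -0.41 to 0.58, adjusted p = 0.825), and it was -0.12 without OS_494H and 0.31 without OS_716H, with no call in either case.

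E2f5 was 9.37, 9.38 and 9.37 in the cultures and 10.00, 10.16 and 9.53 in the lines. Each line was above each culture, and the cultures differed by only 0.01. The difference of 0.52 ± 0.16 (SE, 95% interval 0.14 to 0.90) missed the threshold (adjusted p = 0.0556). It passed in 6 of 15 other settings, among them quantile normalisation (0.0402), median centring (0.0418) and the fit without OS_716H (0.00414).

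E2F7 and E2F8 are atypical factors that bind DNA without a DP partner, repress E2F targets late in S phase and are themselves E2F targets. E2f7 was 7.89, 8.69 and 8.03 in the cultures and 10.10, 10.65 and 10.09 in the lines. Every line was above every culture by over 1. The rise of 2.08 ± 0.25 (SE, adjusted p = 0.00217), or 4.22-fold, was the largest among the 10 genes and had rank 223 among all 19938. E2f8 was 7.07, 7.78 and 6.996 in the cultures and 8.91, 9.58 and 8.10 in the lines. The lowest line, OS_716H, stood just above the highest culture, culture 2, and the lines spanned 1.48, the widest range of the 10. The rise of 1.58 ± 0.39 (SE), or 2.99-fold, was called (adjusted p = 0.0281). That call was lost without culture 1 (0.104), without culture 3 (0.102) and without OS_493H (0.0781).

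The regions before the start sites are shown for the 3 members that rose and held an E2F word there, and for Rbl2, which fell, because several E2F genes are known E2F targets. Promoter sequences came from RefSeq (GRCm38.p6), which held 9 start sites for 7 of the 10 genes. Rb1, E2f4 and E2f5 had no entry. The search took 4 forms of the E2F word, TTTCCCGC, TTTCGCGC, TTTGCCGC and TTTGGCGC, on both strands, in windows of 250 bases before and 50 from each start. Positions are counted from the start site, and capitals mark the E2F word, which reads GCGGGAAA for TTTCCCGC on the other strand.
Rbl1, chr2:157204535-157204784, minus strand: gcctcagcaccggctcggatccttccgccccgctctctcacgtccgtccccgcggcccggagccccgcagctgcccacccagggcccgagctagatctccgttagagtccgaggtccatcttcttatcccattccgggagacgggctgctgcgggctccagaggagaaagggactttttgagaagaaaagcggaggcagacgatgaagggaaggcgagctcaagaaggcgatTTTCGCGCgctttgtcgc
E2f3, chr13:29986064-29986313, minus strand: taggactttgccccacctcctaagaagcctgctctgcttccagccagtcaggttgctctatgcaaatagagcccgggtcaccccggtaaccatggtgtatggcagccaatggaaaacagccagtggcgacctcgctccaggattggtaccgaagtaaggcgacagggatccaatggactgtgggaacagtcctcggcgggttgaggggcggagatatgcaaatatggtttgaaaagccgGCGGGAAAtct
E2f7, chr10:110745189-110745438, plus strand: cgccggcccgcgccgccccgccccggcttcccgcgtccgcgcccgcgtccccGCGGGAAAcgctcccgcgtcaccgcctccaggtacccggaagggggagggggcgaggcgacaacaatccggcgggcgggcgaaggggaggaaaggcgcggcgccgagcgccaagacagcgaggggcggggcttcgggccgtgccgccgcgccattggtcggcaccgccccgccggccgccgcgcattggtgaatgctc
Rbl2, chr8:91069807-91070056, plus strand: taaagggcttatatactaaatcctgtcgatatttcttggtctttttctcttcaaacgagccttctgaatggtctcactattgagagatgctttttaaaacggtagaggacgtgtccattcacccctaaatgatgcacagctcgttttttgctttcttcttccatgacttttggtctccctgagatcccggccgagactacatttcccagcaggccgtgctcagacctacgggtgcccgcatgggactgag

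The E2F word lay at -18 to -11 in Rbl1, at -11 to -4 in E2f3 and at -198 to -191 in E2f7. E2f2, which was not called, held TTTGGCGC at 40 to 47 (tggcggcatatagTTTGGCGCtaa, chr4:136172300-136172323, plus strand). So 4 of 7 genes held a word, against 704 of 27025 genes in the table (2.60%), and against 14 of 30 classic E2F target genes with a promoter entry (46.7%). Rbl2, E2f1 and E2f8 held none in this window. The window listed for E2f1 opens within its coding sequence and is not its usual promoter. The CHR word, TTTGAA or TTTAAA on either strand, which is bound by the MuvB complex in cell cycle genes, was found in 4 of 7 genes and in 30.6% of all genes. The genes were Rbl2, E2f2, E2f3 and E2f8, and the window of E2f2 with this word also opens within coding sequence. It lay close to the start in E2f8 (-20 to -15) and E2f3 (-23 to -18). No CHR word overlapped an E2F word. E2f3 had another start site whose window held neither word, and by start site 4 of 9 held an E2F word. A match is only a run of letters, and the windows of members held 50.7% to 78.7% G and C, against a median of 52.7% over all windows.

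E2F factors other than E2F7 and E2F8 bind DNA together with a DP protein. Tfdp1, the main DP gene, was 10.28, 10.42 and 10.36 in the cultures and 11.08, 11.37 and 10.87 in the lines, and it rose by 0.75 ± 0.13 (SE, adjusted p = 0.00827). Tfdp2 differed by 0.31 without a call (adjusted p = 0.264), and its groups overlapped. E2f6, a repressor that works with Polycomb proteins and not with pocket proteins, was 9.84, 9.69 and 9.76 in the cultures and 9.51, 9.98 and 9.45 in the lines and was not called (-0.12, adjusted p = 0.633).

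The MuvB core joins p130 or p107 with E2F4 in the repressive DREAM complex of resting cells, and joins B-Myb and FoxM1 to activate mitotic genes in dividing cells. Of 8 measured genes of this group 6 rose and 2 fell, against 13.2% and 11.4% of all genes. Their median difference was 0.96. The activator genes Foxm1, Mybl1 and Mybl2 rose by 2.16, 1.82 and 1.495. Foxm1 was 8.16, 8.97 and 7.92 in the cultures and 10.34, 10.80 and 10.40 in the lines. The core genes were mixed. Lin9 rose by 1.31 (adjusted p = 0.00582), Rbbp4 by 0.61 (0.00324) and Lin54 by 0.45 (0.0477), while Lin52 and Lin37 fell by 0.34 (0.0187) and 0.29 (0.0245).

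The small falls and the rise of Lin54 were less stable than the rises of the activators. The calls of Lin52 and Lin37 were lost without culture 1 (adjusted p = 0.0739 and 0.105), without culture 3 (0.0787 and 0.0937) and without OS_493H (0.0571 and 0.073). That of Lin37 was also lost after median centring of each array (0.0567). The call of Lin54 was lost on leaving out any array except OS_493H (0.0739 to 0.14).

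**Figure D3:**
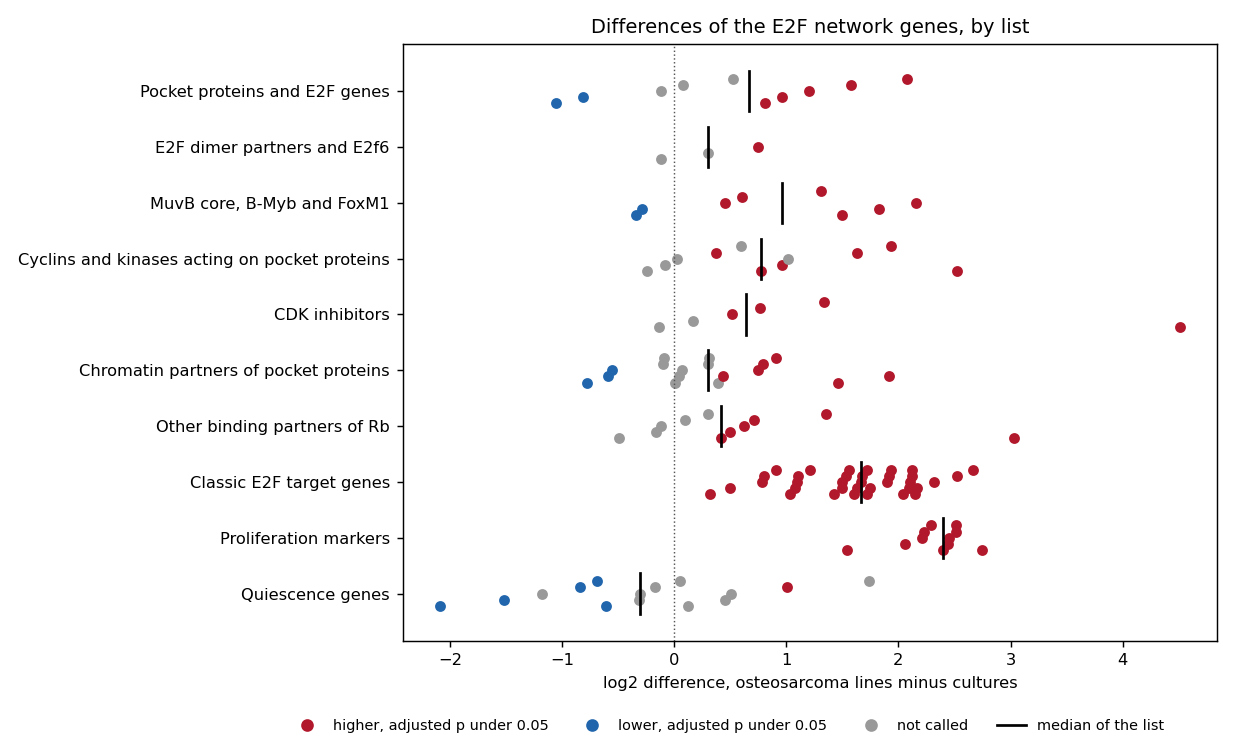
Log2 difference (lines minus cultures, horizontal axis) of each measured gene in 10 lists of the E2F network, with points coloured by the limma call and a bar at the median. All classic E2F target genes and proliferation markers lie above 0, while the pocket protein and E2F genes lie on both sides.

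Upstream of the pocket proteins, the cyclins and kinases of the G1 to S step were examined. Of 11 measured genes 6 rose and none fell, against 13.2% and 11.4% of all genes. With so few genes, the absence of falls says little. The median difference of the 11 was 0.77. Those that rose most were Ccna2 (2.52) and Ccne1 (1.93), which encode cyclins A2 and E1, Ccne2 (1.63) and Cdk2 (0.96). Cdc25a, the phosphatase gene that acts on CDK2, rose by 0.77, and Ccna1, a cyclin of the germ line, by 0.37. The genes of the D-type cyclins and their kinases, which act first on the pocket proteins, were not called. Ccnd1 differed by -0.25, Ccnd2 by 0.02, Ccnd3 by 0.60 (adjusted p = 0.0505), Cdk4 by -0.08 and Cdk6 by 1.01 (adjusted p = 0.0705). Ccnd3 passed in 6 of 15 other settings, among them quantile normalisation (0.0467), median centring (0.0376) and the fit without OS_716H (0.0236). Cdk6 passed in 2 of 15, without OS_716H (0.021) and with array weights (0.0133). Whether these genes differ in response from those called was not tested. The call of Ccna1 was lost without culture 1 (0.0535) or culture 3 (0.0679). Ccna1 also dropped out of the filter on brightness, and whether it lay above background is unknown.

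Inhibitors of these kinases keep Rb in its active form. Of 6 measured, 4 rose, all of them INK4 genes, and none fell, against 13.2% and 11.4% of all genes. Cdkn2a, which encodes p16INK4a and p19ARF, was 6.93, 7.04 and 6.90 in the cultures and 11.37, 11.23 and 11.82 in the lines. All 3 lines lay above all 3 cultures, and the rise of 4.52 was called in 15 of 15 other settings. Cdkn2b, Cdkn2d and Cdkn2c rose by 1.34, 0.77 and 0.51. The call of Cdkn2c was lost without culture 1 (adjusted p = 0.0503) or culture 3 (0.0608). Cdkn1b (-0.14) and Cdkn1c (0.17) were not called.

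Of 17 measured genes on a list of chromatin proteins linked to pocket proteins or E2F factors, 6 rose and 3 fell. Not every protein on the list is known to be recruited by pocket proteins. The median difference was 0.30. Over all genes 13.2% were called higher and 11.4% lower, so the share that fell was near that of all genes. Dnmt1 (1.91), the histone deacetylase gene Hdac1 (1.46), Ezh2 (0.91) and Rbbp7 (0.79) rose most, and Dnmt1 and Ezh2 are themselves E2F targets. Pcgf6, Kdm5a and Mga fell by 0.78, 0.59 and 0.56, but only Kdm5a was lower without culture 1, where Mga and Pcgf6 missed (adjusted p = 0.061 and 0.111), or without culture 3 (0.0565 and 0.106). Pcgf6 also missed without OS_716H (0.0702) and without OS_493H (0.0883). Of 11 other proteins that bind Rb, 6 genes rose and none fell. Id2, which encodes an inhibitor of helix-loop-helix factors that Rb binds, rose by 3.03 (8.89, 9.08 and 8.55 in the cultures and 12.22, 11.65 and 11.74 in the lines). Skp2, the ubiquitin ligase subunit that degrades the inhibitor p27, rose by 1.36, Jun by 0.71 and Psmd10 by 0.63.

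Downstream, all 35 measured genes of a list of classic E2F targets rose, against 13.2% of all genes. Their median difference was 1.67, with a range from 0.32 for Apaf1 to 2.66 for Rrm2. Rrm2, a ribonucleotide reductase subunit, was 8.49, 9.48 and 8.26 in the cultures and 11.51, 11.60 and 11.11 in the lines. Chek1, a checkpoint kinase, rose by 2.32 and Mcm6, a subunit of the replicative helicase, by 2.17. The list shares Mybl2, Ccne1, Ccne2, Ccna2, Ezh2 and Dnmt1 with the groups above. The number that rose was 32 without any 1 culture, where Cdt1, Pcna and Apaf1 missed, 33 without OS_493H and 35 without either other line. A list of 11 measured proliferation markers rose in full as well, with a median difference of 2.40, led by Bub1 (2.75), Birc5 (2.52), Plk1 (2.51) and Ccnb2 (2.45). Mki67, the Ki-67 gene, was 9.01, 10.34 and 8.99 in the cultures and 11.46, 12.01 and 11.57 in the lines. Genes known for quiescence gave no single direction. Of 15 measured, 5 fell and 1 rose, against 11.4% and 13.2% of all genes, with a median of -0.31. Hes1 (-2.09), Klf4 (-1.52), Btg2 (-0.84), Btg1 (-0.69) and Foxo3 (-0.61) were the ones that fell, and Gas1 (1.01) rose. Only 2 of the 15 were lower without culture 1 and without culture 3, where the calls of Hes1 (adjusted p = 0.0527 and 0.0552), Klf4 (0.0966 and 0.106) and Btg1 (0.0704 and 0.0755) were lost. Among the fits without 1 array, that of Klf4 held only without OS_493H.

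The order of the lines was described for the 10 genes and for these targets. Of the 10 genes 9 were highest in OS_494H among the lines, all except Rb1, while over all genes 39.9% were highest there. All 35 classic targets and all 11 proliferation markers were also highest in OS_494H. OS_716H was the lowest line for 8 of the 10 genes, for 28 of 35 targets and for 6 of 11 proliferation markers, against 32.8% of all genes. The median deviation from the mean of the 3 lines was 0.24 in OS_494H and -0.24 in OS_716H for the 10 genes, and 0.28 and -0.23 for the targets. Rb1 ran in another order, lowest in OS_493H and highest in OS_716H. These are counts over genes of the same 3 arrays, and genes are not independent replicates.

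Among the cultures, culture 2 had the highest signal for 28 of 35 targets and for all 11 proliferation markers, against 7482 of 19938 genes in all. The median deviation from the mean of the 3 cultures was 0.28 and 0.69. Culture 2 was also highest for 6 of 7 osteoblast markers and for 1 of 10 adipocyte markers, with median differences from cultures 1 and 3 of 0.66 and -0.49. The 10 genes shared this only in part, with a median difference from cultures 1 and 3 of 0.0006. E2f7, E2f8 and Rbl1 were higher in culture 2 than the mean of cultures 1 and 3 by 0.73, 0.75 and 0.36. E2f2 was higher by 0.21, while E2f1, E2f3, E2f4, E2f5, Rbl2 and Rb1 differed by -0.05, -0.13, -0.12, 0.01, -0.05 and -0.01. The part of growth state or of differentiation in the differences between lines and cultures was not tested.

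**Figure D4:**
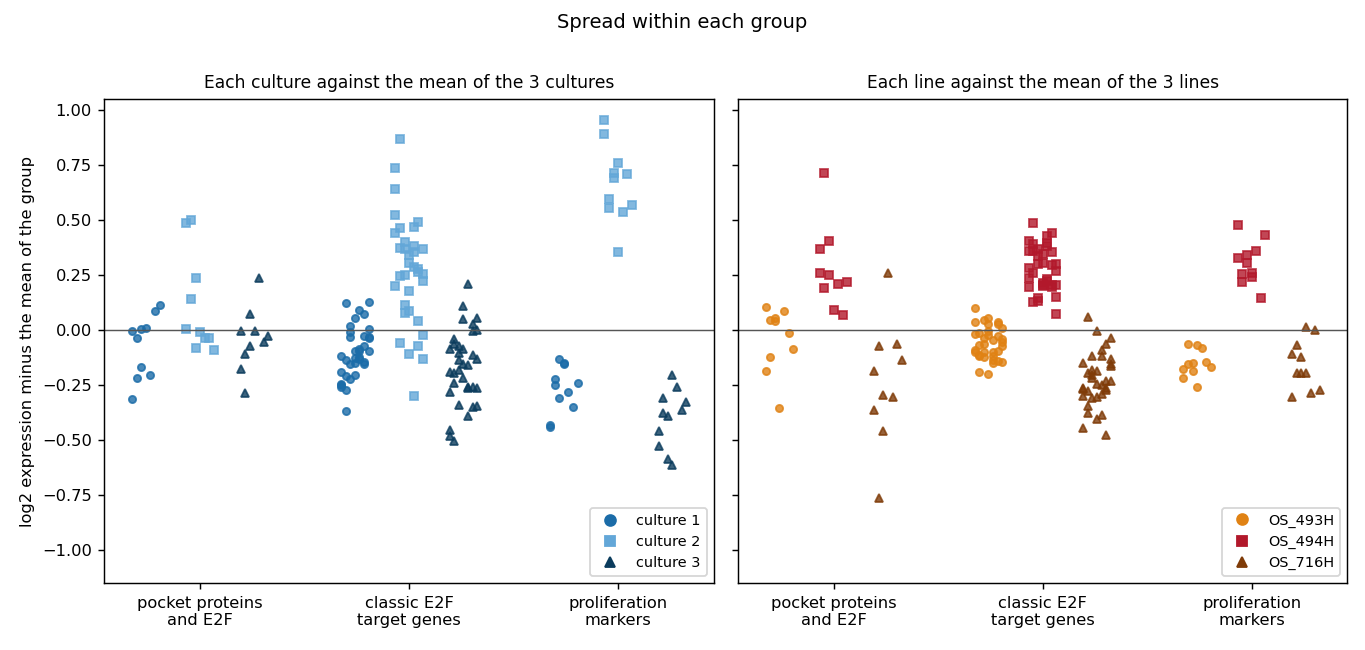
Log2 expression of each gene minus the mean of its own group (vertical axis), for the 10 pocket protein and E2F genes, 35 classic E2F targets and 11 proliferation markers. Points are genes, with cultures in the left panel and lines in the right panel. Culture 2 lies above the other cultures for most targets, and OS_494H above the other lines for all targets.

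The 8 genes with a larger spread in the lines than in the cultures were all except Rbl2 and E2f7, against 65.8% of all genes. The SD over the 3 lines was largest for E2f8 (0.74) and E2f4 (0.43) and smallest for Rbl2 (0.07). The SD over the 3 cultures was under 0.01 for Rb1 and E2f5, and 0.44 and 0.43 for E2f8 and E2f7.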

How the data were processed

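Total RNA of 6 samples was measured on 1-colour Affymetrix mouse arrays, 1 array per sample. The deposited values are log2 expression made by the authors with RMA and the build mm9, per the submitters' processing notes. RMA corrects background, quantile normalises and summarises probes, compresses large differences and gives no detection call. The software that ran it is not given in the sources used here. All columns were mapped to samples. Replicate numbers do not pair lines with cultures. No scan date was used, so no batch was tested.

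Gene symbols came from GEO's annotation of the array. Of 35556 probe sets 21789 had 1 symbol, 1621 had several and 12146 were not listed, and only the first were used as genes. Genes on the lists without such a probe set were not analysed here. The fit was limma 3.58.1 in R 4.3.3 (lmFit and eBayes, two-sided) over 19938 genes, with all 6 arrays and no covariate. The fit was tested on simulated data.

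The 10 genes, the lists and the tests were chosen with earlier results of these data known. Named genes were the 10 members, all genes of the DP and MuvB lists, up to 4 called genes per other list by size (or the 2 largest where fewer than 2 were called), the 4 nearest measured genes on each side of Rb1 and the 5 genes closest in pattern to Rb1 and E2f1. Genes named beyond that rule (the remaining cyclins, kinases and inhibitors, Apaf1, Mki67, Pcgf6, Kdm5a, Mga, Btg1, Foxo3, Cdt1, Pcna, Col1a1, Col1a2, Alpl, Sp7 and the sex-linked genes) were chosen after their values were seen. Protein sequences were not used here. Where the labels do not say that samples of a group were grown apart, p-values measure only the spread between these samples. Alternatives were other normalisations, a brightness filter, other variance models, other uses of probe sets, stricter thresholds and leaving out each array.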

Additional observations from a re-analysis of the deposited data

How the results depend on the processing

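Rb1, Rbl1, Rbl2, E2f1, E2f3 and E2f7 kept direction and call in all 15 alternative settings, with adjusted p up to 0.0378 (E2f1). E2f8 was called in 12 of 15 and E2f5 in 6 of 15. E2f4 was called in none and ran from -0.12 without OS_494H, a reversal, to 0.31 without OS_716H. E2f2 was called in none of 14, and it dropped out of the filter on brightness. With a 2-fold change also required, 3 members were higher and 1 (Rb1) lower, 3 cyclins or kinases were higher, and 0 MuvB genes were lower. MuvB genes that fell numbered 1 after median centring and with an intensity trend, 0 at adjusted p under 0.01, and 0 to 2 with an array left out. Members that rose numbered 4 to 6 with an array left out, with 2 lower in each case. Over all genes, 7.69% were called higher and 6.07% lower without culture 1, and 8.08% and 6.77% without culture 3. No paired analysis was possible because nothing in the labels links a line to a culture. The 3 arrays per group limit the precision, and without a detection call dim genes such as E2f2 cannot be told from background.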
